A study of Mus musculus with 3 samples.

Results

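Shc3, Iqsec3 and Slc4a1ap are 3 of the 21887 protein-coding genes on chromosomes 1 to 19, X and Y in the RefSeq table for GRCm38.p6, the assembly of mm10. They were picked because H3K27ac peaks were called at them in both Arid1a knockout libraries, against 0 or 1 peak in wild type. H3K27ac is a histone acetylation of active promoters and enhancers. The assay was ChIP-seq, and the cells were MIN6, an insulin-secreting line from a mouse pancreatic tumour that stands in for beta cells. The peaks were those inside a gene, or within 50 kb of it with no other protein-coding gene nearer. Since the members were picked on these peaks, their counts against wild type are a description and carry no test.

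The 3 groups were a wild-type clone (WT), a Heterozygous ARID1A KO clone and a Homozygous ARID1A KO clone, with 1 library each and so no replicate check. Per the labels, MIN6 cells were made to express Cas9 from a lentivirus, were selected with blasticidin, and then received a second lentivirus with an Arid1a guide RNA under puromycin selection. Single clones were picked and sorted into the 3 genotypes by PCR and by Western blot for ARID1A. The edited cells thus share Cas9 expression and drug selection. The labels name the wild type among the picked clones, but its deposited peak names carry the tag GAL4, which is not explained in the sources used here, so whether it received the Arid1a guide is not known here. Every difference below is one between single clones, in which genotype and clone cannot be told apart. ARID1A belongs to SWI/SNF, a complex that moves nucleosomes.

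Shc3 encodes a member of the SHC adaptor family that is best known from neurons. SHC adaptors bind phosphorylated receptor tyrosine kinases and pass the signal through Grb2 to Ras. Iqsec3, also called BRAG3 or SynArfGEF, encodes an exchange factor that activates ARF6 and sits at inhibitory synapses, where it binds the scaffold gephyrin. Slc4a1ap encodes kanadaptin, a largely nuclear protein named after an anion exchanger of the kidney. Acetylation at a gene marks chromatin and does not measure its RNA, and nearness of a peak does not show which gene it serves.

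The sequences that bear on these loci are the guide RNA target that made the clones and 3 promoters that the peaks do or do not cover. The guide as the labels give it is shown 5′ to 3′ with its last 3 bases, the PAM, in capitals; no genome was used, so its position is not given. The promoters are the 250 bases before a RefSeq start site, on the strand of the gene and on GRCm38.p6, with every CpG in capitals. That of Iqsec3 lies on the minus strand at chr6:121473679-121473928 and that of Slc4a1ap on the plus strand at chr5:31526745-31526994. That of the long non-coding RNA AI839979 lies on the minus strand at chr5:31571398-31571647, beyond the far end of Slc4a1ap. They are shown because those of Iqsec3 and Slc4a1ap were overlapped by a peak in all 3 libraries and that of AI839979 in the heterozygous library alone.
Arid1a guide: gctgctgctgatacgaaggtTGG
Iqsec3: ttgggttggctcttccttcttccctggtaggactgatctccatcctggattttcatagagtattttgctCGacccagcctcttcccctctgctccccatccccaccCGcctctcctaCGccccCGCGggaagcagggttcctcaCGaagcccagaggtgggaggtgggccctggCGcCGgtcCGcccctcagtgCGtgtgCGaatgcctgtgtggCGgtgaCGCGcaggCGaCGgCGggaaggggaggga
Slc4a1ap: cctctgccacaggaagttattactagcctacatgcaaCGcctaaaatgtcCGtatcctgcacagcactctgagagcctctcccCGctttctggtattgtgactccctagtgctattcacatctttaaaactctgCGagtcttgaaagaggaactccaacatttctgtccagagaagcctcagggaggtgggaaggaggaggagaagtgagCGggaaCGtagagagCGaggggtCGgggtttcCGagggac
AI839979: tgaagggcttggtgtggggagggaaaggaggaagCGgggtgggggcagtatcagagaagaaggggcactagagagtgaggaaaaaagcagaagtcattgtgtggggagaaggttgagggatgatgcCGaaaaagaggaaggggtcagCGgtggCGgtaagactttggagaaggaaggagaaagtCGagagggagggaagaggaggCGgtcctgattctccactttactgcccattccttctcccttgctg

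The Iqsec3 promoter held 17 CpGs and was 64.8% G and C, that of Slc4a1ap held 9 at 52.4%, and that of AI839979 held 6 at 54.8%. Over the 32851 promoter windows of the table, of the same length, the median was 6 CpGs, and 76.5% of windows held fewer than Iqsec3, 59.7% fewer than Slc4a1ap and 49.6% fewer than AI839979. The GC box GGGCGG was found 1 time at Iqsec3 and not in the other windows shown, searched on both strands, and 32.7% of all windows held it. Neither the CCAAT box (CCAAT, in 33.8% of all windows) nor the AP-1 motif (TGACTCA, in 4.46%) was found in any of the 3, on either strand. A match describes the letters in a window and is not a bound site.

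The wild-type list held 41490 peaks, the heterozygous list 31365 and the homozygous list 34298. No source used here gives read totals. Pile-ups at the summit, in reads, were therefore recovered from each peak's deposited fold enrichment and −log10 p. Their medians were 49, 47 and 54 reads in that order, and the lowest recovered background was 2.17, 1.73 and 1.73 reads per position. Pile-ups are given side by side and were not scaled between libraries. Of 13 beta cell marker genes, among them Ins1, Ins2 and Pdx1, 12 had a peak within 1 kb of a gene end in wild type, 10 in the heterozygous clone and 11 in the homozygous clone. Of 3 alpha cell markers 1, the glucagon gene Gcg, had such a peak, in the homozygous library. None of 3 acinar, 2 immune and 3 fibroblast marker genes had such a peak in any library. Farther from a gene end, in the same order, the immune genes Ptprc and Cd79a had 2, 2 and 0 and 2, 0 and 0 peaks. The fibroblast genes Pdgfra, Col1a1 and Dcn had 1, 6 and 0, 2, 0 and 1, and 0, 1 and 0. Arid1a itself had 5, 4 and 6 peaks, which does not check the knockout.

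Together the 3 genes had 24 regions, where a region is a set of peaks of any library that touch or overlap. Of these 22 were not called in wild type: 10 were called in both knockouts, 9 in the heterozygous library alone and 3 in the homozygous library alone. Both regions that wild type had lay at the promoters of Iqsec3 and Slc4a1ap and were called in all 3 libraries. The additional knockout regions were at neither promoter. Of the 10 shared ones, 5 lay inside a gene away from its ends, 4 lay outside, and 1 lay at an end of Shc3. Across the genome 3.16% of the 52938 regions were called in both knockouts and not in wild type, 21.4% of heterozygous regions were absent from the wild-type list, and 25.9% of homozygous regions were. The members' counts had been the reason for picking them, so nothing is read from their distance to these shares.

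**Figure D1:**
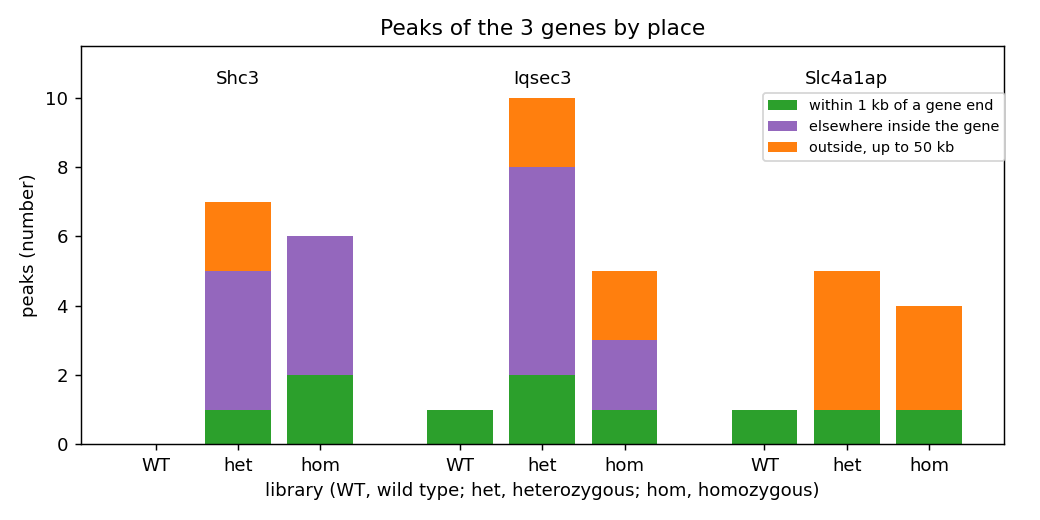
Number of H3K27ac peaks (vertical axis) of Shc3, Iqsec3 and Slc4a1ap in the wild-type (WT), heterozygous (het) and homozygous (hom) library, 1 library each, split by place in the gene. Wild type has no bar at Shc3 and 1 gene-end peak at each of the other genes, while the knockout peaks of Shc3 and the heterozygous peaks of Iqsec3 lie mostly inside the gene and the additional peaks of Slc4a1ap outside it.

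Shc3 lies on chromosome 13 at 51423389 to 51569451 (mm10) and had 0 peaks in wild type, 7 in the heterozygous clone and 6 in the homozygous clone. It was the only member with no wild-type peak at all. The strand of Shc3 is not in the table used, so its ends are called lower and upper by coordinate. Of its 9 regions 4 were shared by both knockouts, 3 were called in the heterozygous clone and 2 in the homozygous clone alone. No peak of any library lay at the lower end.

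At the upper end of Shc3, a shared region at 51568930 to 51569451 had a summit pile-up of 53 reads in the heterozygous clone and 54 in the homozygous clone. The fold was 4.04 in the heterozygous clone and 8.90 in the homozygous clone, over a recovered background of 12.38 and 5.18 reads. Just past that end the homozygous library had a further peak at 51569594 to 51570024, 142 bp from the first, with 61 reads. The heterozygous library had none there, but a pair of peaks 4340 and 4699 bp outside the gene, at 51573791 to 51574006 with 37 reads and at 51574150 to 51574582 with 52 reads. Both knockouts thus had acetylation at the upper gene end, while the stretch beyond it was called at different places.

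Inside Shc3 the highest peaks formed a pair. Its homozygous summits lay 116378 and 116897 bp above the lower end. The region at 51539555 to 51539959 had 58 reads in the heterozygous clone and 92 in the homozygous clone, and that at 51540100 to 51540744 had 64 and 120. The recovered background at the second was 5.77 times the lowest of its library in the heterozygous clone and 8.37 times in the homozygous clone, and its part in the difference was not tested. At the first region that background was 5.84 and 8.43 times the lowest, and the authors' folds were closer, at 5.31 and 5.95. The authors' folds at the second were 5.91 within the heterozygous list and 7.80 within the homozygous one. Within a list the −log10 q was 27.15 and 63.15, above the list medians of 18.49 and 22.63. Whether these regions lie in an exon or an intron is not known here, because the table gives no exons.

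A weaker shared region lay at 51526267 to 51526613, with 21 reads in the heterozygous clone and 29 in the homozygous clone. The homozygous library had a companion at 51526780 to 51527106 with 24 reads. The remaining heterozygous peak, at 51485753 to 51485984, had 17 reads and a −log10 q of 8.23, the lowest of all the Shc3 peaks. Its summit lay 62448 bp above the lower end, and no peak of any library lay lower in the gene.

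Wild-type peaks as low as these were listed elsewhere. In the wild-type list 2682 peaks, or 6.46% of those with a recovered pile-up, had 17 reads or fewer, and 8233, or 19.8%, had 24 or fewer. The lowest pile-ups of the Shc3 peaks were 17 in the heterozygous clone and 24 in the homozygous clone. A call also depends on local background, which is not known at Shc3 in wild type. These shares therefore do not show what could have been called there. Signal under the calling threshold is not in the files, so that an uncalled region is not shown to lack acetylation.

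None of the 3 protein-coding genes on either side of Shc3 had a region called in both knockouts and not in wild type. S1pr3, a sphingosine-1-phosphate receptor gene 591 bp below Shc3, had 0 peaks in all 3 libraries. Cks2, which encodes a cyclin-dependent kinase subunit and lies 75780 bp above, had 3, 2 and 2 peaks in wild type, heterozygous and homozygous libraries. Its highest peak, at the start of the gene, had 208, 128 and 249 reads. The peak at the start of Secisbp2, a gene of selenoprotein synthesis, had 126, 107 and 133 reads. Between Shc3 and the peaks at the start of Cks2, wild type had 1 region, at 51637063 to 51637650 with 29 reads, and neither knockout had it. The more distant genes Nxnl2, Spin1 and Sema4d had 1, 2 and 6 peaks in wild type, against 1, 2 and 4 for the heterozygous and 1, 3 and 7 for the homozygous clone.

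**Figure D2:**
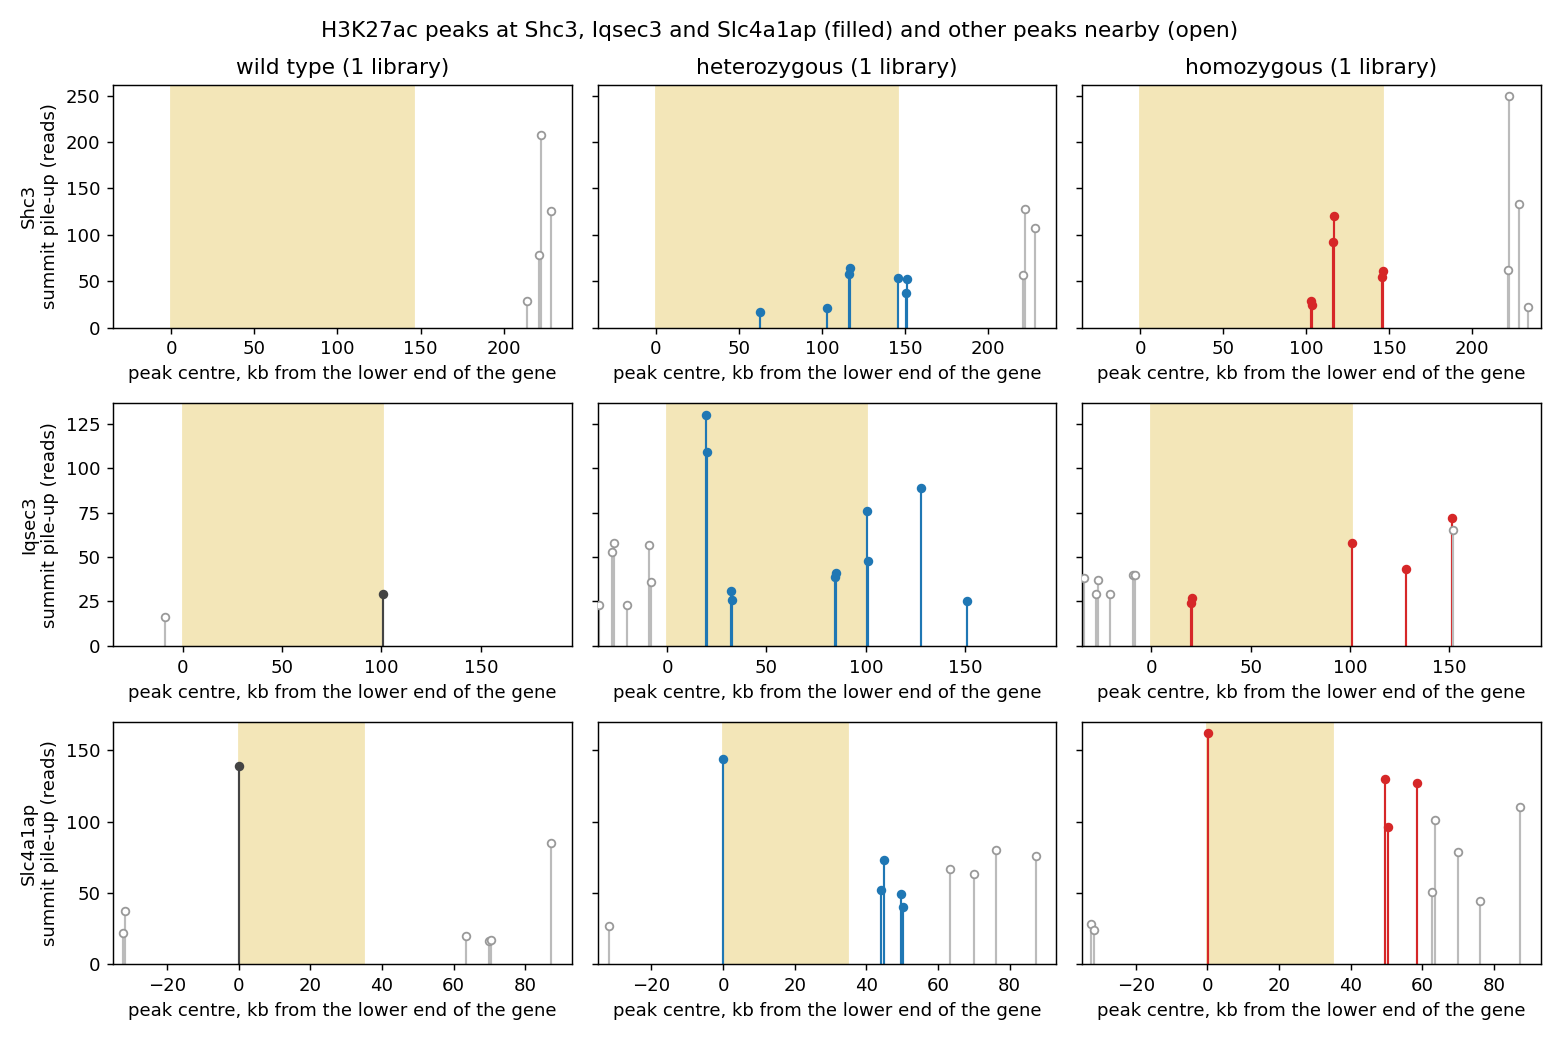
Recovered summit pile-up in reads (vertical axis, shared within a row) of each peak against its distance in kb from the lower end of the gene, for Shc3, Iqsec3 and Slc4a1ap (rows) in the 3 libraries (columns, 1 library each). The shaded band is the gene, filled points are its own peaks and open points are other peaks nearby. The Shc3 band is empty in wild type and holds peaks up to 64 reads in the heterozygous clone and 120 reads in the homozygous clone.

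Iqsec3 lies on the minus strand of chromosome 6 at 121372927 to 121473738 (mm10), with its RefSeq start site at 121473678. It had 1 peak in wild type, 10 in the heterozygous clone and 5 in the homozygous clone. The wild-type peak was the promoter, which was called in all 3 libraries, so the gene was not unmarked in wild type. It had 4 regions called in both knockouts and not in wild type and 4 more in the heterozygous library alone, while no region was called in the homozygous library alone.

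The Iqsec3 promoter peak lay at 121473014 to 121474097 in wild type, with 29 reads, and at 121473016 to 121474208 in the homozygous library, with 58 reads. In the heterozygous library it was called as a pair. The part downstream of the start site, at 121472910 to 121473678, had 76 reads, and the part upstream, at 121473799 to 121474202, had 48. They were 120 bp apart, and the promoter sequence shown above holds the whole of that gap. The wild-type pile-up was the lowest of the 3 libraries. The recovered background there was lowest too, at 3.04 reads in wild type against 8.40 and 8.28 at the heterozygous pair and 5.52 in the homozygous library, and its part in the difference was not tested. The folds over that background were 7.43 in wild type, 8.19 and 5.28 in the heterozygous pair and 9.05 in the homozygous library, so that wild type stood between the knockout peaks.

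The highest pile-ups inside Iqsec3 lay toward its far end, with heterozygous summits 81181 and 80492 bp downstream of the start site. In the heterozygous library a peak at 121391790 to 121392830 had 130 reads and its neighbour at 121392957 to 121393511 had 109. In the homozygous library the peaks in the same regions, at 121392586 to 121392832 and 121392944 to 121393332, had 24 and 27 reads. The heterozygous pair was thus the higher one in unscaled pile-up. The folds were 6.72 and 5.65 in the heterozygous library against 6.31 and 7.0 in the homozygous one, so that neither library was higher at both peaks. The recovered background moved with the pile-up, at 10.7 times the lowest of its library for both heterozygous peaks against 1.71 and 1.73 times for the homozygous ones, and its part in the difference was not tested.

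The internal Iqsec3 regions of the heterozygous library alone came as 2 pairs. The pair at 121404978 to 121405350 and 121405667 to 121405883 had 31 and 26 reads. The pair at 121457264 to 121457597 and 121457739 to 121458258, with summits 16252 and 15786 bp downstream of the start site, had 39 and 41 reads. None of these 4 peaks reached the median −log10 q of the heterozygous list.

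Upstream of Iqsec3, both knockouts had peaks in the long stretch with no protein-coding gene. The region at 121500225 to 121501398, which began 26487 bp from the gene in the heterozygous clone and 26637 bp in the homozygous clone, had 89 reads in the heterozygous clone and 43 in the homozygous clone. That at 121523689 to 121524353 had 25 and 72 reads. It lay 49951 and 49991 bp from the gene in the 2 knockouts, just within the 50 kb limit. A homozygous peak at 121524565 to 121525236, with 65 reads, lay just outside it, at 50827 bp. The order of the knockouts in pile-up was not the same in these regions. The fold was the higher one in the homozygous library in both, at 8.98 against 7.56 in the first and 6.20 against 4.59 in the second. The recovered background over the lowest of its library moved with the pile-up, at 6.29 in the heterozygous clone and 2.25 in the homozygous clone for the first region and 2.69 and 6.21 for the second, and its part was not tested.

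The nearest genes below Iqsec3 also had more knockout peaks. Slc6a12, a betaine and GABA transporter gene 7153 bp away, had 1 peak in wild type and 5 in each knockout, with 3 regions called in both knockouts and not in wild type. In the shared region at 121363359 to 121364117 its pile-ups were 16 in wild type, 57 in the heterozygous clone and 40 in the homozygous clone. The folds there were closer, at 4.67, 5.64 and 5.28, with a recovered background of 1.22, 5.35 and 3.90 times the lowest of its library. Slc6a13, the next GABA transporter gene, had 0, 1 and 1 peaks. Usp18, an interferon-regulated protease gene 102009 bp away, had 3 peaks in each library. On the upper side A2m, Mug1 and Mug2, which encode protease inhibitors of the macroglobulin family, had 0 peaks in all 3 libraries. The additional knockout regions thus ran from near the upper end of Slc6a13 across Slc6a12 and Iqsec3 into the upstream stretch.

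**Figure D3:**
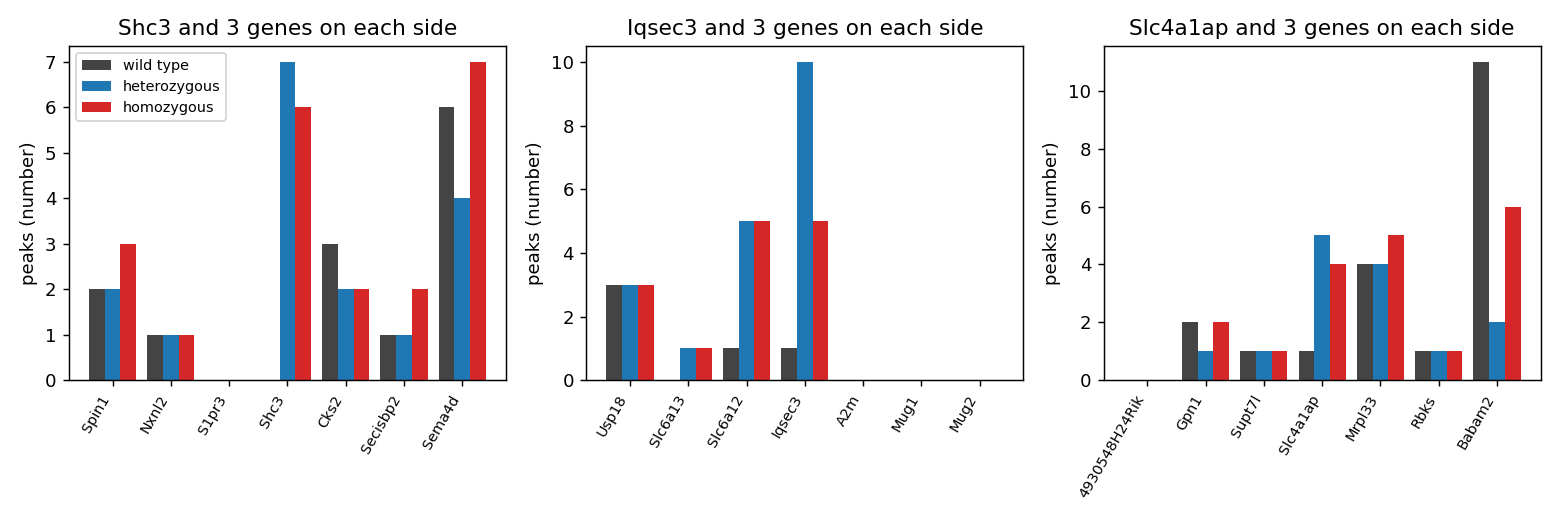
Number of peaks (vertical axis) of each member and of the 3 nearest protein-coding genes on each side, in order along the chromosome, with 1 bar per library. Slc6a12 beside Iqsec3 has 1 peak in wild type and 5 in each knockout, S1pr3 beside Shc3 has none in any library, and Babam2 near Slc4a1ap goes the other way, with 11 peaks in wild type, 2 in the heterozygous clone and 6 in the homozygous clone.

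Slc4a1ap lies on the plus strand of chromosome 5 at 31526781 to 31561755 (mm10). It had 1 peak in wild type, 5 in the heterozygous clone and 4 in the homozygous clone. Its promoter peak had a −log10 q above that of at least 98.2% of the peaks of its list in each library, and its additional knockout peaks all lay past the far end of the gene. No library had a peak inside Slc4a1ap away from the promoter.

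The promoter peak lay at 31526424 to 31527546 in wild type, 31526361 to 31527414 in the heterozygous clone and 31526416 to 31527462 in the homozygous clone. Its pile-ups were 139, 144 and 162 reads, and its authors' folds within the lists 15.22, 17.68 and 16.91. The same peak covers the start of Supt7l, a gene on the opposite strand 18 bp away that encodes a subunit of the SAGA coactivator complex, so it was counted for both genes. This was the only region of the gene called in wild type, and the highest of its pile-ups was that of the homozygous library.

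Past the far end of Slc4a1ap, both knockouts had a pair of regions, whose homozygous peaks began 14051 and 15114 bp from the gene. That at 31575806 to 31576691 had 49 reads in the heterozygous clone and 130 in the homozygous clone, and that at 31576869 to 31577456 had 40 and 96. Wild type had neither. Their folds were 4.69 and 4.87 in the heterozygous library and 7.75 and 5.70 in the homozygous one. Within its own list the homozygous pair ranked by −log10 q above 84.7% and 67.6% of peaks. The heterozygous pair ranked lower in its list, above 45.6% and 39.3% of peaks. The recovered background was 5.57 and 4.28 times the lowest of its library at the heterozygous pair and 9.16 and 9.23 times at the homozygous pair, and its part in the difference was not tested.

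The remaining regions differed between the knockouts. The heterozygous library had a pair at 31570541 to 31571147 and 31571362 to 31571918, with 52 and 73 reads, 8786 and 9607 bp from the gene. They lie at the long non-coding RNA gene AI839979 (31569592 to 31571397), and the second covers the whole promoter shown above. Neither wild type nor the homozygous library had a peak on that promoter. The homozygous library alone had a region at 31584984 to 31585640, 23229 bp from the gene, with 127 reads.

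The peaks next in line were nearer to Mrpl33, a mitochondrial ribosomal protein gene, and so are not those of Slc4a1ap, but they continued the same stretch. Here wild type was called too, at low pile-ups. At 31589387 to 31590594 wild type had 20 reads, the heterozygous library 67, and the homozygous library 51 and 101 in a pair of peaks. At 31596045 to 31597535, over the lower end of the long non-coding RNA gene Gm38424, wild type had 16 and 17 reads in a pair, the heterozygous library 63 and the homozygous library 79. A region at 31602597 to 31603395 was called in the knockouts only, with 80 and 44 reads. Between the promoters of Slc4a1ap and Mrpl33, every pile-up was thus at most 20 in wild type and at least 40 in the knockouts, unscaled. The folds over local background did not separate the libraries in this way. In the first of these regions the fold was 4.47 in wild type, 5.74 in the heterozygous library and 2.23 and 4.67 in the homozygous pair. At Gm38424 it was 4.83 and 5.06 in wild type, 5.87 in the heterozygous library and 5.38 in the homozygous one. The recovered background over the lowest of its library was 1.7 in the first region in wild type, against 6.25 in the heterozygous library and 12.9 at the first peak of the homozygous pair. The peak at the start of Mrpl33 had 85, 76 and 110 reads.

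The other genes near Slc4a1ap had about as many peaks in each library or fewer in the knockouts. Gpn1, a GTPase gene, had 2, 1 and 2 peaks, Rbks, which encodes ribokinase, 1 in each, and 4930548H24Rik 0 in each. Babam2, a gene of DNA damage signalling, had 11 peaks in wild type, 2 in the heterozygous clone and 6 in the homozygous clone, with 6 regions called in wild type alone.

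Where both knockouts had a region that wild type lacked, their peaks overlap by the way such regions are defined, so their closeness is a description. Over the 10 such pairs of peaks the median distance between the heterozygous and homozygous summits was 77 bp, and the median overlap was 98.0% of the shorter peak. Over all 22932 heterozygous peaks that overlapped a homozygous one the median distance was 41 bp and the median overlap was the whole of the shorter peak. The largest distance among the members, 220 bp, was at the internal Iqsec3 region that was 1041 bp wide in the heterozygous clone and 247 bp wide in the homozygous clone.

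Most of the knockout peaks came close together. Of the 32 knockout peaks in regions not called in wild type, 25 had another peak of the same library within 1 kb, 14 of 19 in the heterozygous clone and 11 of 13 in the homozygous clone. Over the whole lists 59.2% and 59.5% of peaks had one. The members were picked on their knockout peaks, so nothing is read from the distance to these shares. Neighbouring peaks share their source and are not independent. Within the lists, 7 of these 19 heterozygous and 9 of 13 homozygous peaks were above the list median of −log10 q.

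In number of regions called in both knockouts and not in wild type, Shc3 and Iqsec3 had 4 each and Slc4a1ap 2. Of the 14574 genes with a region, 7.82% had at least 1 such region, 14 genes had 4 or more, and 246 had 2 or more. Genes with 0 or 1 wild-type peak and at least 3 peaks in each knockout made up 0.336%, or 49 genes. All 3 members are among them. They were picked for peaks in both knockouts and 0 or 1 in wild type, so nothing is read from this. The floor of 3 peaks in each knockout was set here and was not part of that choice.

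**Figure D4:**
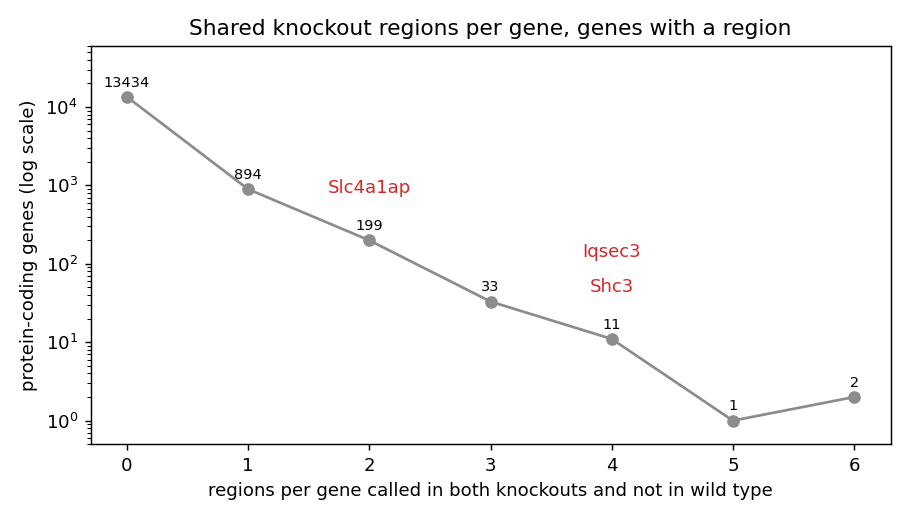
Number of protein-coding genes (vertical axis, log scale, labelled at each point) against the number of regions per gene called in both knockouts and not in wild type, over the 14574 genes with a region. Shc3 and Iqsec3 are among 11 genes with 4 such regions and Slc4a1ap among 199 with 2.

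Genes with the most similar peak numbers were found by the summed difference in peaks over the 3 libraries, with ties settled by the mean place of their knockout peaks in the lists. Closest to Shc3 were Pcgf5, with 2 peaks in wild type, 7 in the heterozygous clone and 6 in the homozygous clone, Gm4606 with 1, 7 and 5, Slc35f3 with 0, 7 and 4, Tmem212 and Slc6a19. Closest to Iqsec3 were Sgip1, with 2, 9 and 5 peaks, Exoc6 with 1, 8 and 5, Bod1, Gm4606 and Niban1. Closest to Slc4a1ap were Ugt1a9, with the same 1, 5 and 4 peaks, Ptk2 with 2, 5 and 4, Mrps28, Mypn and Slc6a12. Over only 3 libraries, likeness in peak numbers is a weak description.

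Most genes of the same pathways had no region called in both knockouts and not in wild type. Among 24 SHC adaptors and partner genes, 22 had a region and 3 of these, or 13.6%, had a region called in both knockouts and not in wild type, against 7.82% of all genes with a region. These were the SHC family gene Shc4, with 3 peaks in wild type and 5 in each knockout, the EGF receptor gene Egfr, with 0, 5 and 1, and the IGF receptor gene Igf1r, with 7, 4 and 3. Each had 1 shared knockout region. Igf1r also had 4 regions called in wild type alone, where Shc4 and Egfr had 0. Shc1, the widely expressed family member, had 2 peaks in each library, and Shc2 had 6, 4 and 4. Grb2, the adaptor downstream of SHC proteins, had 6 in each. Of the list 10 genes had a region called in wild type alone, where 34.3% of all genes with a region had one, among them Ntrk2 and Ntrk3, which encode neurotrophin receptors, with 11 and 12 such regions. The median number of shared knockout regions was 0, as over all genes with a region.

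Among 25 genes of IQSEC and other ARF exchange factors, ARFs and inhibitory synapse partners, 24 had a region. Of these 2, or 8.33%, had a shared knockout region, against 7.82% of all genes with a region. The 2 were Psd2, an ARF6 exchange factor gene, with 8 peaks in wild type, 10 in the heterozygous clone and 6 in the homozygous clone, and Arfgef1 with 2, 3 and 3. Psd2 had 2 shared knockout regions and 3 regions called in wild type alone, and Arfgef1 had 1 and 0. The closest relatives of Iqsec3 had more peaks in wild type. Iqsec1 had 10, 3 and 2 and 7 regions called in wild type alone, and Iqsec2 had 1, 0 and 0. Arf6, the substrate, had 2, 2 and 3, and the gephyrin gene Gphn 2, 2 and 3. Of this list 10 genes had a region in wild type alone, where 34.3% of all genes with a region had one, and the median of shared knockout regions was 0.

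Among the 10 genes of SLC4 bicarbonate transporters, after which Slc4a1ap is named, 9 had a region. Of these 1, or 11.1%, had shared knockout regions, against 7.82% of all genes with a region. This was Slc4a10, a sodium-coupled transporter gene, with 1 peak in wild type and 4 in each knockout and with 2 such regions. The anion exchanger gene Slc4a1 had 4, 2 and 2 peaks, with 2 regions in wild type alone. Of this list 4 genes had a region in wild type alone, where 34.3% of all genes with a region had one.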

How the data were processed

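H3K27ac ChIP-seq peaks of 3 MIN6 clones were used, 1 library per genotype, as grouped by the genotype label. The authors called peaks in each library with MACS2 on mm10 after bcl2fastq demultiplexing, per the submitters' processing notes; no source used here gives versions, aligner, control or threshold. Each deposited list gives a score, which was 10 times −log10 q for all but 1 wild-type and 3 homozygous peaks, a fold enrichment over local background, −log10 p and −log10 q, used here only within a list. From these, whole-number summit pile-ups and backgrounds were recovered (the fold being that of the 2 values after adding 1 to each, and p a Poisson upper tail), with −log10 p matched within 0.001, for all but 1 wild-type, 2 heterozygous and 1 homozygous peaks. This recovery was tested on simulated data. A list's depth is unknown beyond that, and more reads allow weaker peaks to be called.

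Peaks that touched or overlapped by 1 bp or more were merged into 52938 regions. Each peak or region went to the nearest protein-coding gene body within 50 kb, or to both genes at equal distance. A gene-end peak lay within 1 kb of a gene end. Named genes were the members, 3 neighbours on each side, list genes with one-sided regions and the 5 most alike in peak numbers. Ins1, Ins2, Pdx1, Shc1, Grb2, Arf6, Gphn, Ptprc, Pdgfra and Dcn were named after their values were seen. Members and lists were chosen with earlier results of these data known. RefSeq gave promoter windows for Iqsec3, Slc4a1ap and AI839979, with no entry for Shc3. Alternatives were the window, −log10 q floors, lists of equal length, the overlap rule and the nearest gene end. No test across samples was possible. Python 3.11.15, numpy 2.4.6, pandas 2.3.3, scipy 1.17.1 and matplotlib 3.10.9 were used.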

Additional observations from a re-analysis of the deposited data

How the results depend on the processing

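Of 24 alternative counts of regions called in both knockouts and not in wild type, 21 were within 1.5 times the reported count and 3 were lower. With a window of 10 kb, Iqsec3 had 2 such regions and Slc4a1ap 0, since the others lie farther out. With peaks within 1 kb merged, Slc4a1ap had 1, since its pair became a single region. Shc3 had 3 or 4 under every alternative run. Lists of equal length gave the reported counts for all 3 genes. That cut left the heterozygous list whole and shortened the wild-type and homozygous lists. It could not add a wild-type peak to any region, so it cannot check for a difference in depth. Of 54 alternative peak counts per library 50 were within 1.5 times the reported count and 4 were lower: Shc3 in the heterozygous library had 4 peaks with a −log10 q of at least 10, and with 10 kb Slc4a1ap had 3 in the heterozygous clone and 1 in the homozygous clone and Iqsec3 3 in the latter. No paired analysis was possible because each genotype has 1 library. With 1 clone per genotype, and no read counts outside called peaks, neither the spread between clones nor signal under the calling threshold can be given.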

Other observations

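Among the 49 genes with 0 or 1 wild-type peak and at least 3 in each knockout, Shc3 and Iqsec3 had the most regions called in both knockouts and not in wild type. Both were picked on such counts, so this rank is a description. With peaks within 1 kb merged each had 3, and genes other than the members were not recounted that way. Without that merging, the 6 genes with 3 such regions were Gm4606, Grb14, Insyn1, Nefl, Slc6a12 and Vmp1. Grb14 encodes an adaptor that binds the insulin receptor and had 0 peaks in wild type and 3 in each knockout. Insyn1, which encodes a protein of inhibitory synapses, also had 0 and 3 in each. Nefl, the gene of the neurofilament light chain, had 1, 5 and 6, and Vmp1, a gene of autophagy, had 1, 6 and 5. They were chosen with their values in view, and no test was run on what they share.

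Of all 1391 regions called in both knockouts and not in wild type that lay within 50 kb of a gene, 14.4% lay at a gene end, 50.8% elsewhere inside a gene and 34.9% outside. Over all 45951 regions within 50 kb of a gene these shares were 33.0%, 45.3% and 21.7%. The 10 regions of Shc3, Iqsec3 and Slc4a1ap called in both knockouts and not in wild type are part of the first set.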
